A study of Homo sapiens with 21 samples.

Results

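RUNX1 peaks were examined around 9 genes of the NOTCH pathway: the receptors NOTCH1 and NOTCH3, the nuclear partners RBPJ and MAML1, and the target genes HES1, HES4, HEY1, DTX1 and NRARP. A peak was counted as a member when its summit, the position of highest signal, lay in a fixed hg19 window about one of these genes. The windows covered 684 kb and held 614 of the 791439 peaks in 14 lists. Summits lying within 200 bp of a neighbour were joined across lists into regions that reached 100 bp beyond the outermost summits. The windows held 121 of the 190855 regions made in this way.

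The lists came from chromatin immunoprecipitation and sequencing of epitope-tagged RUNX1 in Jurkat, an established line of T-cell acute lymphoblastic leukaemia. Knock-in single clones carried the truncating change R232fs (2 clones), the truncating change Y287X (2 clones) or the missense change G365R (2 clones). In each of them HA tagged the mutant RUNX1 and TY1 the wild-type RUNX1, with a list for either. The parental WT cells, whose RUNX1 was wild type under either tag, gave 1 HA and 1 TY1 list. All cells were labelled untreated and were fixed for 15 min. In mutant clones the 2 tags differ in antibody as well as in protein, which cannot be told apart there, and the WT lists give the tags alone. Each list pools many cells of 1 clone, so that binding in fewer cells and weaker binding in each cell cannot be told apart. Peak lists carry neither expression nor the edited sequence, so the cell type and the mutations rest on the labels.

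RUNX1 binds DNA and regulates transcription during the formation of blood cells. In NOTCH signalling, a ligand on a neighbouring cell leads to cleavage of the receptor. The released intracellular part enters the nucleus, where it joins RBPJ, which binds DNA, and MAML1, a coactivator. The complex switches on target genes, among them the HES and HEY repressors, DTX1, a ubiquitin ligase that modulates the receptor, and NRARP, a feedback inhibitor. NOTCH1 is often activated by mutation in T-cell acute lymphoblastic leukaemia, the disease Jurkat cells derive from.

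The 250 bases before the annotated start of the HES1 and the HES4 gene are shown because these promoters carry the letters read by RBPJ, the step of the pathway that sits between the receptors and the other genes described here. Sequences are from RefSeq, build GRCh38.p14, written 5′ to 3′ along the gene, HES1 from chr3:194135898-194136147 on the plus strand and HES4 from chr1:1000098-1000347 on the minus strand. Capitals mark TGGGAA, the core of the RBPJ motif, searched on both strands.
HES1: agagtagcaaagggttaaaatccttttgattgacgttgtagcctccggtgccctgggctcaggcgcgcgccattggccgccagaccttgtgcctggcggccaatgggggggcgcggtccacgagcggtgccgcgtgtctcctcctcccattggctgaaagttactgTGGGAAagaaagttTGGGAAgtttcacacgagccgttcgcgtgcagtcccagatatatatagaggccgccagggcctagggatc
HES4: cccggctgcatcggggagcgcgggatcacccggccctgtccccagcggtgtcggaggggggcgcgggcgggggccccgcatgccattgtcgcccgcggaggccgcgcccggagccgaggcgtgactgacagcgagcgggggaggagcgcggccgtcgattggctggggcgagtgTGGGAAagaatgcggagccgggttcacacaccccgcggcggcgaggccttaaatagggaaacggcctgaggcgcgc

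HES1 held 2 matches, at positions 167 and 181 of the window counted from its 5′ end, and HES4 held 1, at position 175. Of the 11 promoter entries searched for 7 of the genes, the other with matches was 1 of the 5 RBPJ entries, with 2. HEY1 and DTX1 were not among the genes searched, so nothing is said of their promoters. None of the 11 held TGTGGT or TGCGGT, letters of the RUNX motif searched on both strands, so no match of one motif overlapped one of the other. Over all 35116 promoter entries, 20.8% held TGGGAA and 16.3% held TGTGGT or TGCGGT. A match describes the letters and is not a measured binding site. The peaks lie on hg19, and they were not placed on these GRCh38.p14 sequences. For the same reason no exon, intron or promoter is assigned to a region here.

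Every gene but NRARP had a peak in all 14 lists, and NRARP had one in 10. The RBPJ window, the longest at 292 kb, held 128 peaks, the DTX1 window 100, HES1 78, NOTCH1 74, MAML1 66, NOTCH3 59, HES4 54, HEY1 31 and NRARP 24. Per 10 kb of window, HES4 had 3.64 regions, DTX1 3.28, HES1 2.79, NRARP 2.61, HEY1 2.08, NOTCH3 1.77, NOTCH1 1.53, RBPJ 1.301 and MAML1 1.18. Target genes thus carried more regions per 10 kb than the receptors and their nuclear partners, although the windows were chosen per gene and were not of equal length.

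**Figure D1:**
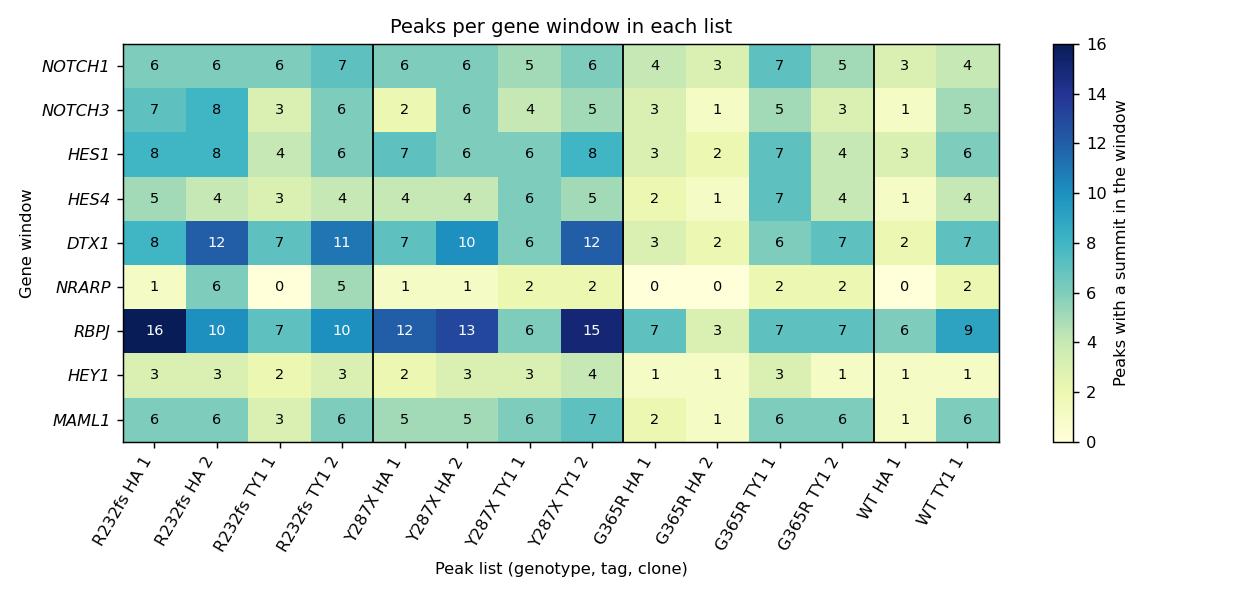
Number of peaks with a summit in each gene window (rows) in each of the 14 lists (columns, by genotype, tag and clone). The G365R HA and WT HA lists are the palest columns, with 14 to 25 peaks in all windows, and NRARP is at 0 in these 3 lists and in the first R232fs TY1 list.

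The windows held 60 and 63 peaks in the R232fs HA lists and 35 and 58 in the R232fs TY1 lists. In Y287X there were 46 and 54 with HA and 44 and 64 with TY1. In G365R the HA lists had 25 and 14 peaks and the TY1 lists 50 and 39, and in WT the HA list had 18 and the TY1 list 44. HA counts were thus the lower of the 2 tags in both G365R clones and in WT, and the higher in both R232fs clones. Lists differed in length, and per 10000 peaks of a list the range narrowed to 4.58 to 8.17 in the G365R and WT HA lists and 6.31 to 9.81 in the other lists. The R232fs HA lists had 7.51 ± 0.31 window peaks per 10000 against 9.27 ± 0.76 in R232fs TY1 lists (SD, n = 2 each). G365R HA lists had 6.37 ± 2.54 against 7.51 ± 1.70 in G365R TY1 lists (SD, n = 2 each), a difference smaller than the spread between clones. No test was made on these counts.

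Regions of the NOTCH windows were shared between lists about as often as other regions or somewhat more. Of the 121 regions, 9 (7.44%) were present in all 14 lists, against 5.92% of all regions. In at least 10 lists there were 31 (25.6%), against 16% of all regions. In a single list there were 45 (37.2%), against 42.3% of all regions. Those 45 included 24 of the 38 RBPJ regions. Within each window regions are numbered from the lowest coordinate, and each region named below is given by its gene and this number.

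The list depth and the kind of list bear on every comparison. The summit pileup, the number of fragments at the summit, and the local background can be solved from the deposited fold and p-value. The commonest background of a list, the nearest measure of its depth, ran from 2.83 to 4.61 fragments. The highest pileup among the peaks sampled from a list was 1913 to 5369 in R232fs and Y287X lists and 385 to 471 in G365R and WT lists. Truncating and other genotypes are therefore also 2 kinds of list, and a difference between them cannot be told apart from that. In the first G365R TY1 list and the WT TY1 list pileups were scaled and are not whole numbers of fragments.

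Among the receptors, NOTCH1 had 2 of the 9 shared regions. NOTCH1 region 7, chr9:139424216-139424499, had a fold (signal over local background, the authors' value) of 4.76 and 5.21 in R232fs HA and 3.48 and 5.36 in R232fs TY1 lists. In Y287X it had 3.45 and 3.21 with HA and 3.42 and 4.07 with TY1, in G365R 4.25 and 3.73 with HA and 4.89 and 4.41 with TY1, and in WT 3.28 with HA and 3.504 with TY1. By fold HA was the higher only in the first R232fs and the first Y287X clone. Percentiles were taken among the 11291 regions of the whole genome that were in all 14 lists. By these the region stood higher with HA than with TY1 in each of the 7 clones, by only 4.64 against 4.39 in the second Y287X clone. Its percentile was 26.8 ± 2.1 in R232fs HA against 12.6 ± 2.2 in R232fs TY1 lists, and 41.8 ± 6.5 in G365R HA against 29.8 ± 1.0 in G365R TY1 lists (SD, n = 2 each). The WT clone, without a mutant protein, had the same direction, with 32.9 in HA and 15.9 in TY1.

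NOTCH1 region 11, chr9:139440541-139440878, was the weaker shared region by rank, with percentiles of 3.94 to 23.4, and lay on the highest local background of the 9, 59.9 to 126 fragments. Its fold was 3.10 and 3.94 in R232fs HA, 3.36 and 6.30 in R232fs TY1, 2.73 and 3.13 in Y287X HA and 3.99 and 4.72 in Y287X TY1 lists. G365R had 2.13 and 2.02 with HA and 3.27 and 2.63 with TY1, and WT 1.94 with HA and 2.88 with TY1. By fold the TY1 value was higher than the HA value in all 7 clones. By rank this held in the 4 truncating clones, while in the G365R and WT clones the HA rank was the higher.

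The shared region of NOTCH3, the second receptor, was region 8, chr19:15308116-15308664. It had a fold of 3.40 and 5.55 in R232fs HA, 3.48 and 7.65 in R232fs TY1, 2.66 and 3.25 in Y287X HA and 3.23 and 3.95 in Y287X TY1 lists. In G365R it had 3.71 and 5.31 with HA and 4.68 and 5.79 with TY1, and in WT 3.13 with HA and 3.69 with TY1. Its summits fell at 2 places by clone and not by tag. They lay between 15308216 and 15308278 in both lists of the second R232fs and the second Y287X clone, and between 15308460 and 15308564 in the other 10 lists. The local background was 15.2 to 25.2 fragments at the first place and 29.3 to 60.6 at the second.

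RBPJ, the DNA-binding partner of the receptors, held the 2 shared regions of highest median fold. RBPJ region 31, chr4:26374408-26374725, had a fold of 16.1 and 9.17 in R232fs HA, 21.4 and 11.47 in R232fs TY1, 13.98 and 14.7 in Y287X HA and 18.3 and 23.8 in Y287X TY1 lists. In G365R it had 8.997 and 10.7 with HA and 16.4 and 15.9 with TY1, and in WT 13.2 with HA and 18.4 with TY1. HA fold was the lower in all 7 clones and the HA percentile in 5 of 7, and percentiles ran from 62.6 to 91.0 over the lists. Its pileups were modest, 38 to 111 fragments, and its background of 2.83 to 4.75 was near the commonest background of the lists.

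RBPJ region 8, chr4:26199046-26199330, also lay on a low background of 3.96 to 9.63 fragments. Its fold was 10.2 and 6.78 in R232fs HA, 9.71 and 9.67 in R232fs TY1, 4.97 and 8.71 in Y287X HA and 5.42 and 12.4 in Y287X TY1 lists. G365R had 12.1 and 11.9 with HA and 17.7 and 17.6 with TY1, and WT 10.3 with HA and 13.8 with TY1. By percentile R232fs and Y287X lists stood at 32.5 to 71.4 and G365R and WT lists at 84.4 to 89.9. How many of all shared regions separate by genotype or tag in such a way was not counted, here or for the regions below.

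MAML1, the coactivator, had no region in all 14 lists. The most shared was region 8, chr5:179223129-179223401, in 13 lists, with no summit in WT HA. It had a fold of 3.46 and 6.27 in R232fs HA, 4.35 and 8.30 in R232fs TY1, 4.59 and 4.19 in Y287X HA and 5.31 and 5.63 in Y287X TY1 lists. In G365R it had 2.23 and 1.94 with HA and 3.07 and 2.57 with TY1, and in WT TY1 2.69. Where both tags had a summit, the TY1 fold was above the HA fold of the same clone. By percentile among the regions in all 4 lists of a genotype, this held in the R232fs and Y287X clones. In the G365R clones HA was the higher, with 7.70 and 4.85 against 4.22 and 4.01. MAML1 region 10 was also in 13 lists and straddled the edge of the window. Summits 2 bp inside that edge, with a fold of 2.17, and 14 bp outside it, with 2.21, were the nearest to any window edge, and the region holds both.

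HES1 encodes a basic helix-loop-helix repressor and is the best known NOTCH target. Its shared region 4, chr3:193849072-193849347, had a fold of 4.74 and 5.04 in R232fs HA, 5.28 and 6.34 in R232fs TY1, 4.94 and 6.30 in Y287X HA and 6.27 and 11.51 in Y287X TY1 lists. In G365R it had 5.39 and 7.46 with HA and 9.64 and 11.47 with TY1, and in WT 8.85 with HA and 11.4 with TY1. Percentiles followed the genotype rather than the tag. They were 25.6 ± 3.7 and 39.8 ± 0.1 in R232fs and Y287X HA lists, 67.1 ± 9.0 in G365R HA lists (SD, n = 2 each) and 80.4 in the WT HA list. With TY1 they were 27.5 ± 5.4 in R232fs, 49.3 ± 10.8 in Y287X and 71.7 ± 6.9 in G365R (SD, n = 2 each) and 78.3 in WT. By percentile no R232fs or Y287X list reached any G365R or WT list, and how often this holds over all shared regions was not counted. By fold it did not hold, since the second Y287X TY1 list had the highest value of all, 11.51. The truncating lists are also another kind of list, as above.

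HES4, a repressor of the same family, had its shared region 8 at chr1:940432-940688. Its fold was 4.86 and 5.47 in R232fs HA, 4.74 and 7.29 in R232fs TY1, 2.97 and 4.28 in Y287X HA and 3.04 and 4.45 in Y287X TY1 lists. G365R had 1.89 and 2.36 with HA and 3.00 and 3.18 with TY1, and WT 2.04 with HA and 2.76 with TY1. R232fs lists stood highest by percentile, at 25.8 to 32.6, with all other lists at 2.67 to 17.2.

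HEY1, a repressor related to the HES proteins, had its shared region 3 at chr8:80677530-80677805. The fold was 5.18 and 8.91 in R232fs HA, 4.31 and 8.82 in R232fs TY1, 3.73 and 4.86 in Y287X HA and 4.15 and 6.26 in Y287X TY1 lists. G365R had 2.05 and 2.08 with HA and 4.29 and 3.61 with TY1, and WT 1.90 with HA and 3.502 with TY1. The HA percentile was the higher in the 4 truncating clones and the TY1 percentile in the 2 G365R clones and in WT. In the HA lists, all 4 truncating values of 23.6 to 63.0 lay above the 3 G365R and WT values of 5.33 to 8.07.

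NRARP, the feedback inhibitor, was the least covered gene. Its most shared region, region 4 at chr9:140196714-140197051, was absent from both G365R HA lists, the WT HA list and the first R232fs TY1 list. The fold was 2.13 and 4.04 in R232fs HA, 4.35 in the second R232fs TY1, 1.76 and 2.73 in Y287X HA and 2.01 and 3.15 in Y287X TY1 lists. G365R TY1 lists had 2.27 and 1.81, and WT TY1 1.99. The local background there was 57.3 to 86.9 fragments.

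Beside these, 1 more RBPJ region was in 13 lists, missing only from the second R232fs HA list. RBPJ region 18, chr4:26289910-26290217, had a fold of 8.13 in R232fs HA against 17.6 and 8.82 in R232fs TY1 lists, and of 6.34 and 6.81 in Y287X HA against 7.22 and 12.1 in Y287X TY1 lists. G365R had 4.82 and 5.97 with HA and 4.16 and 5.93 with TY1, and WT 3.695 with HA and 4.48 with TY1. The WT and G365R values were all below the lowest truncating value of 6.34. NOTCH3 region 5, DTX1 region 2, RBPJ region 12 and RBPJ region 21 were each in 12 lists, all 7 TY1 lists and 5 of the 7 HA lists. Their fold ran from 2.53 to 6.54 at NOTCH3 region 5, from 2.51 to 12.1 at DTX1 region 2, from 3.71 to 11.2 at RBPJ region 12 and from 1.91 to 2.87 at RBPJ region 21.

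**Figure D2:**
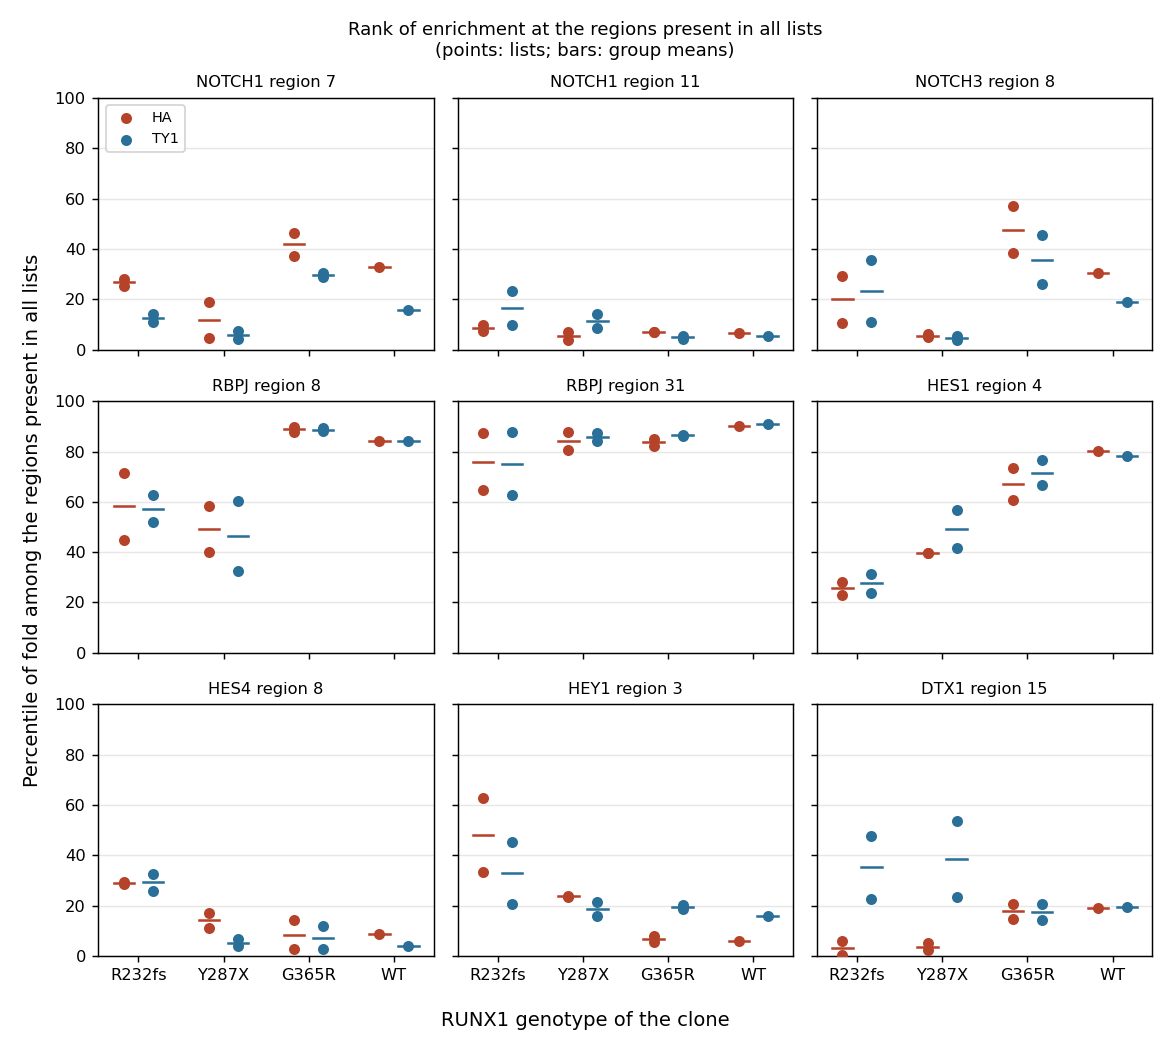
Percentile of fold among the 11291 regions present in all lists, for the 9 of them in the NOTCH windows, by genotype and tag (points are lists, bars are group means). HES1 region 4 and RBPJ region 8 are lower in all R232fs and Y287X lists than in all G365R and WT lists, and DTX1 region 15 is lower with HA than with TY1 in R232fs and Y287X.

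For tests across genotypes, fold was ranked within each list over the 11291 shared regions and turned into normal scores, in which 1 unit is the SD of the scores of a list. They were compared with limma, with Benjamini-Hochberg adjustment over all 11291 regions and a threshold of 0.05. These lists come from single clones, 2 per mutant genotype, so p-values between genotypes rest on the spread between clones. This fit takes the HA and TY1 lists of a clone as independent, although their estimated correlation was 0.735, so its degrees of freedom are overstated. With clone as a term, p-values rest on how far the difference between tags varies between clones.

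Truncated and G365R RUNX1 were compared first. In the comparison of truncating HA with G365R HA lists, 4 of the 9 regions were called, 1 higher and 3 lower, against 9.53% of all regions (5.66% higher and 3.87% lower). The lower regions were NOTCH3 region 8 (change of -1.18 ± 0.32 score units, SE, adjusted p = 0.0455), RBPJ region 8 (-1.12 ± 0.28, adjusted p = 0.0344) and HES1 region 4 (-0.91 ± 0.22, adjusted p = 0.0353). HEY1 region 3 was higher, by 1.12 ± 0.29 (adjusted p = 0.0378). The median change was -0.74 over the 9 regions and 0.04 over all regions. Without either G365R clone, or without either Y287X clone, none of the 9 was called. On regions in at least 10 lists the direction of the calls differed: 3 of 20 NOTCH regions were called, HEY1 region 3, HES4 region 8 and MAML1 region 8, all higher, against 17.5% of all regions, and the median change was 0.32 over the 20 and 0.33 over all regions. RBPJ region 8, HES1 region 4 and NOTCH3 region 8 kept a negative change there and were not called (adjusted p = 0.0733, 0.16 and 0.245). The contrast is also one between kinds of list, as above, and its part in the result was not tested.

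The wild-type RUNX1 of those clones gave a similar picture for some of these regions. In truncating TY1 against G365R TY1 lists, 1 of 9 was called, against 4.57% of all regions. It was RBPJ region 8, lower by -1.16 ± 0.28 (adjusted p = 0.0423), about as far as with HA. HES1 region 4 had a change of -0.89 ± 0.22 (adjusted p = 0.0506) and NOTCH3 region 8 one of -0.86 ± 0.32 (adjusted p = 0.133). HEY1 region 3 had a change of 0.18 ± 0.29 (adjusted p = 0.712) with TY1. The median change was -0.19 over the 9 regions and 0.05 over all. RBPJ region 8 was called with every clone kept, and of the 6 fits that left out a clone only the one without the first R232fs clone called any of the 9, with 2.

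**Figure D3:**
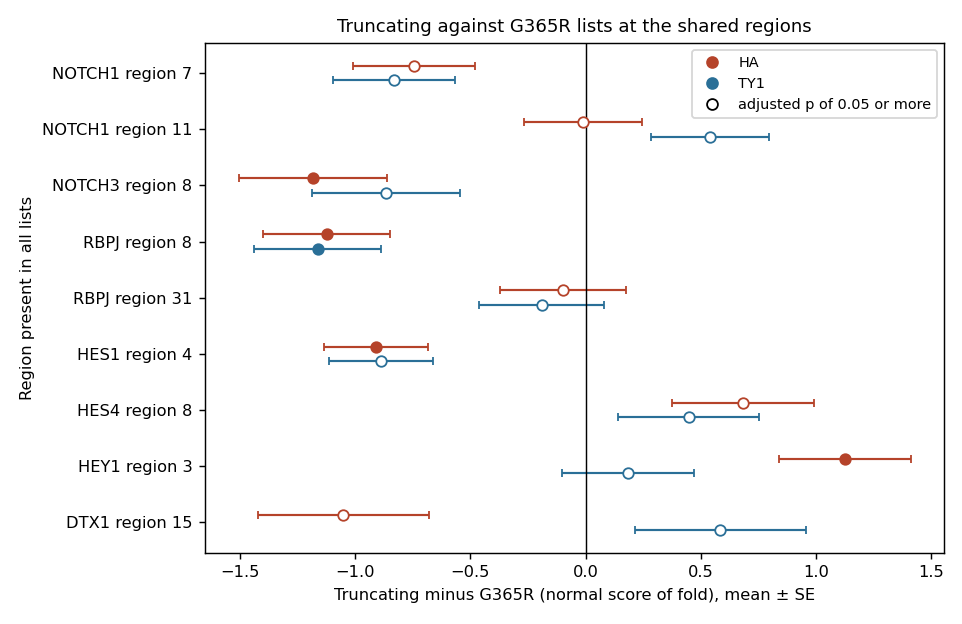
Change in normal score, truncating (R232fs and Y287X) minus G365R lists, with its standard error, at the 9 shared regions, for HA and TY1 (filled points have an adjusted p under 0.05). RBPJ region 8 lies near -1.1 for both tags, while HEY1 region 3 is at 1.12 with HA and 0.18 with TY1.

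Set against the WT HA list, the R232fs HA lists had 1 of 9 regions called, against 2.44% of all regions. That region was HES1 region 4, lower by -1.52 ± 0.32 (adjusted p = 0.043), and with a random clone effect the adjusted p was 0.0514 and none of the 9 was called, against 1.75% of all regions. HEY1 region 3 had the largest change of the 9, of 1.53 ± 0.40, and did not pass (adjusted p = 0.0713). In Y287X HA against WT HA none of 9 was called, against 0.151% of all regions, and 4 of the 9 and 1707 of all 11291 regions had an unadjusted p under 0.05. The largest changes were those of HES1 region 4 (-1.12 ± 0.32, adjusted p = 0.173) and NOTCH3 region 8 (-1.09 ± 0.45, adjusted p = 0.297). In G365R HA against WT HA no region of the genome was called (0%), and 354 of all regions and 0 of the 9 had an unadjusted p under 0.05. Its largest change among the 9 was 0.44 ± 0.45, at NOTCH3 region 8. WT had 1 HA list, assumed in the fit to vary like the others, and the count of R232fs calls moved with the clones: without the first R232fs clone it was 3 of 9, and without the second, or without any 1 of the G365R and Y287X clones, it was 0.

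Among the shared regions, the widest gap between HA and TY1 in the truncating clones was at region 15 of DTX1, the ubiquitin ligase. Other DTX1 regions did not all go this way. Among regions in all 4 R232fs lists, regions 2, 10, 16 and 17 had positive changes (0.19, 0.48, 0.12 and 0.28 score units). Region 9 had a negative one (-0.67), and none of these was called. DTX1 region 15, chr12:113527233-113527515, had a fold of 2.00 and 3.56 in R232fs HA against 4.44 and 9.07 in R232fs TY1 lists. In Y287X it had 2.56 and 2.86 with HA against 7.58 and 6.46 with TY1. G365R had 2.78 and 2.40 with HA and 3.90 and 3.73 with TY1, and WT 2.53 with HA and 3.70 with TY1. The HA fold was the lower in all 7 clones and did not overlap TY1 in any mutant genotype, and the gap was widest in the truncating clones. In the G365R and WT clones the HA fold was the lower at every shared NOTCH region, so there it is not particular to DTX1 region 15. How often such a gap is found over all regions was not counted.

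The pileups show the same gap in fragments. DTX1 region 15 had 87 and 144 fragments in R232fs HA against 189 and 355 in R232fs TY1 lists, over a background of 43.1 and 39.8 with HA and 41.8 and 38.2 with TY1. In Y287X it had 88 and 127 fragments with HA against 233 and 227 with TY1. By rank the truncating clones stood apart from the rest. The percentile was 3.08 ± 3.90 in R232fs HA against 35.2 ± 17.9 in R232fs TY1, and 3.66 ± 1.90 in Y287X HA against 38.5 ± 21.4 in Y287X TY1 lists (SD, n = 2 each). In G365R it was 17.7 ± 4.0 with HA and 17.4 ± 4.4 with TY1 (SD, n = 2 each), and in WT 19.02 with HA and 19.34 with TY1.

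In the fit without a clone term no region of the genome was called between HA and TY1 in any genotype (0% of 11291), with 1368, 463 and 590 regions at an unadjusted p under 0.05 in R232fs, Y287X and G365R and 1, 1 and 0 of the 9. DTX1 region 15 had a change of -1.74 ± 0.43 in R232fs (adjusted p = 0.205) and of -1.50 ± 0.43 in Y287X (adjusted p = 0.9997). Same-numbered HA and TY1 lists were taken as pairs from 1 clone. With clone as a term DTX1 region 15 fell by 1.74 ± 0.22 in R232fs (adjusted p = 0.00553) and by 1.50 ± 0.22 in Y287X (adjusted p = 0.0342). It was then 1 of 9 called in R232fs, against 21.7% of all regions, and 1 of 9 in Y287X, against 0.815% of all regions. In G365R none of the 9 was called with clone as a term, against 4.08% of all regions. The R232fs call held when any 1 of the G365R and Y287X clones was left out, whereas the Y287X call was lost without either G365R clone. Leaving out an R232fs or Y287X clone leaves 1 pair of lists for that genotype. Its own spread between clones then has no part in the p-value, so such fits do not show whether its clones agree. The Y287X call was also lost on regions in all 4 Y287X lists (-1.21 ± 0.19, adjusted p = 0.169, with clone as a term).

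A test of the difference between genotypes was made with clone as a term, on HA minus TY1 in truncating clones minus the same in G365R clones. It called 2 of the 9 regions, against 17.1% of all regions. DTX1 region 15 had a value of -1.64 ± 0.26 (adjusted p = 0.00874) and HEY1 region 3 one of 0.94 ± 0.21 (adjusted p = 0.0211). Without the clone term neither passed (adjusted p = 0.311 and 0.45), and no region of the genome did (0%; 1177 had an unadjusted p under 0.05).

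Regions present in all 4 lists of a genotype, though not in all 14, allow more sites of NOTCH1 to be set beside each other. In R232fs there were 25541 such regions and 30 in the NOTCH windows. With clone as a term, 4 of the 30 were called between HA and TY1, against 4.38% of all 25541, and without it none was, nor any region of the genome (1148 of all and 4 of the 30 had an unadjusted p under 0.05). NOTCH1 regions 2, 3 and 9 were among the 4, with DTX1 region 15, and were chosen for description after their values were seen. NOTCH1 region 2, chr9:139383078-139383345, had 161 and 229 fragments in R232fs HA against 93 and 145 in R232fs TY1 lists and was higher with HA, by 1.05 ± 0.24 (adjusted p = 0.0491). NOTCH1 region 3, chr9:139400017-139400313, had 254 and 386 fragments in R232fs HA against 439 and 1033 in R232fs TY1 lists and fell by 1.07 ± 0.22 (adjusted p = 0.0398). NOTCH1 region 9, chr9:139433246-139433552, had 129 and 206 fragments in R232fs HA against 184 and 418 in R232fs TY1 lists and fell by 1.02 ± 0.23 (adjusted p = 0.0468).

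In R232fs, sites within the window of 1 receptor gene were called in opposite directions between HA and TY1, only in the fit with clone as a term. That fit used the 4 R232fs lists alone and had few degrees of freedom, and the adjusted p-values of these sites lay just under the threshold. Antibody and protein cannot be told apart in these differences. In Y287X the pileups ran the same way at each of the 3 sites in both clones: 116 and 170 fragments with HA against 74 and 155 with TY1 at region 2, 203 and 403 against 325 and 523 at region 3, and 162 and 258 against 212 and 291 at region 9. The fold did so too at regions 3 and 9, but at region 2 in the second Y287X clone it was 4.02 with HA against 4.61 with TY1, over backgrounds of 41.5 and 32.9 fragments. None of these was called in Y287X with the clone term, against 0.0134% of 29746 regions, or without it, where no region was (1248 had an unadjusted p under 0.05). Neither region 2 nor region 9 had a summit in a G365R or WT HA list, so the tags could not be compared there in those clones. Region 3 had both in the first G365R clone, where HA was the lower as well, with 83 against 117 fragments and a fold of 2.03 against 2.78.

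**Figure D4:**
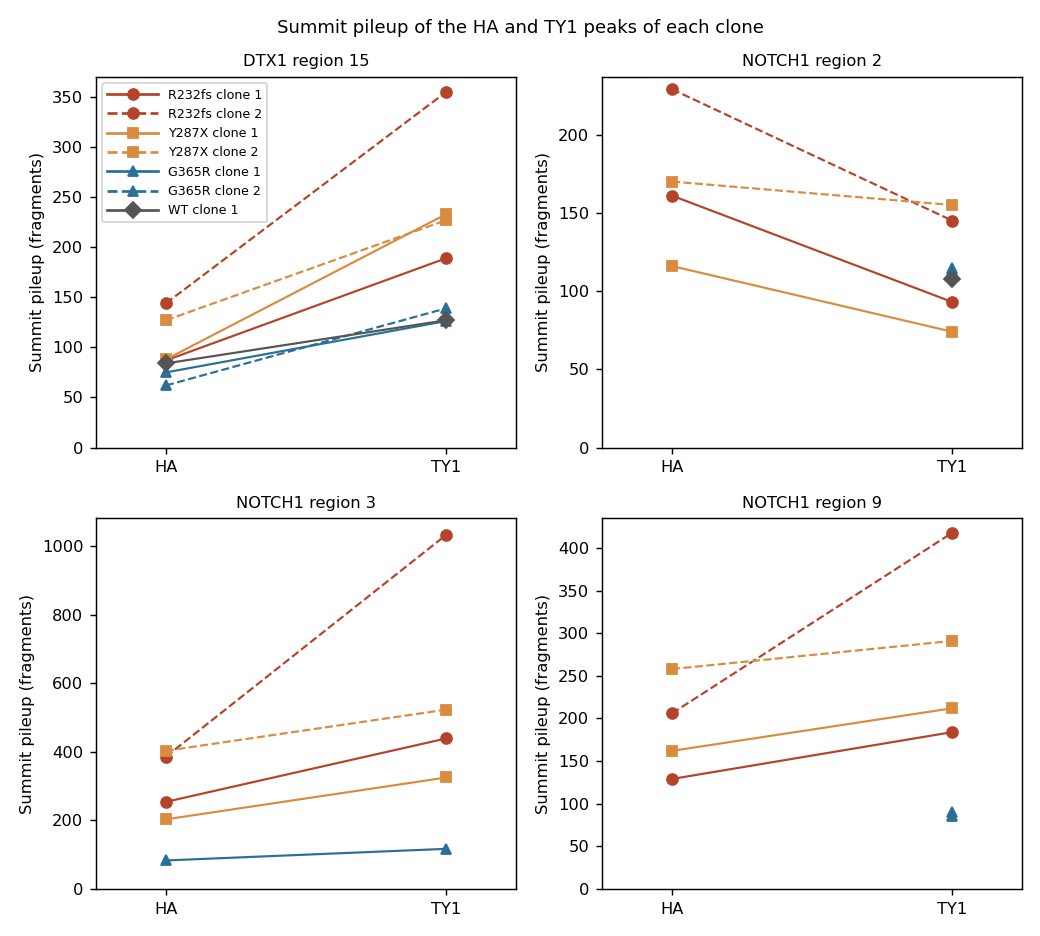
Summit pileup, in fragments, of the HA and TY1 peaks of each clone, joined by lines, at DTX1 region 15 and NOTCH1 regions 2, 3 and 9 (a single point is a clone with a peak for 1 tag). NOTCH1 region 2 is higher with HA in all 4 truncating clones, and DTX1 region 15 is lower with HA in all 7 clones.

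In G365R, NOTCH regions found with TY1 alone outnumbered those found with HA alone, at a share near that of all regions. Of 59 NOTCH regions found in any G365R list, 14 (23.7%) were in both TY1 lists and in neither HA list, against 18.9% of all such regions. None was HA-only, against 0.579% of all. The 5 of highest median fold were RBPJ region 12 (5.49), DTX1 region 10 (3.67), NOTCH1 region 9 (3.59), DTX1 region 9 (3.49) and NOTCH1 region 2 (3.31). MAML1 had 4 of the 14, DTX1 3, NOTCH1 2, NRARP 2, and RBPJ, HES1 and HES4 1 each. The G365R HA lists are shorter than the TY1 lists of the same clones, 30609 and 30563 peaks against 57378 and 61793, and with all lists cut to 30563 peaks the count was 4 of 39 (10.3%), against 5.86% of all regions. WT cells, with wild-type RUNX1 under either tag, also had fewer window peaks with HA than with TY1, 18 against 44. Of these 14, 9 had a WT TY1 peak and no WT HA peak. Among 63 regions found in any G365R or WT list, those 9 (14.3%) were in all 3 G365R and WT TY1 lists and in none of the 3 HA lists, against 9.25% of all regions, and with lists of equal length the count was 0.

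Some regions were in the truncating HA lists and not in the G365R and WT HA lists. The latter are shorter, with 30563 to 37472 peaks against 51892 to 86433 in truncating HA lists. Of 103 regions in any HA list, 13 (12.6%) were in all 4 truncating HA lists and in no G365R or WT HA list, against 6.03% of all regions, and none showed the reverse, against 0.913%. The 5 of highest median fold were RBPJ region 32 (4.19), NOTCH1 region 9 (3.59), DTX1 region 9 (3.49), NOTCH1 region 2 (3.31) and DTX1 region 17 (3.26). All of these but RBPJ region 32 were in both G365R TY1 lists, and NOTCH1 region 2 and DTX1 region 17 also in the WT TY1 list. With lists of equal length 6 of 57 were in this class, against 5.13% of all regions. The same comparison of TY1 lists gave none of 89 in either direction, against 0.553% and 3.01% of all regions. RBPJ region 32, chr4:26380492-26380970, had 14 and 20 fragments in R232fs HA, 20 and 25 in R232fs TY1, 15 and 14 in Y287X HA and 22 in the second Y287X TY1 list, and no summit in the other Y287X TY1 list or in any G365R or WT list.

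In the truncating clones few regions belonged to 1 tag. None of 111 regions in any truncating list was in all 4 HA and in no TY1 list, against 0.101% of all regions, or in all 4 TY1 and in no HA list, against 0.0338%. R232fs had 2 of 89 HA-only regions (2.25%, against 5.91% of all) and 1 of 89 TY1-only (1.12%, against 0.401%). Y287X had 1 of 86 HA-only (1.16%, against 1.13%) and 2 of 86 TY1-only (2.33%, against 2% of all). DTX1 region 13 (HA) and DTX1 region 14 (TY1) accounted for the pair of highest fold in R232fs, and HES1 region 5 (HA) and HES1 region 6 (TY1) for that in Y287X. The peaks were broad, with median widths of 1066 and 1120 bp at the DTX1 pair and 1438 and 1426 bp at the HES1 pair, although the first G365R HA list had separate peaks of 438 and 433 bp at the 2 HES1 regions. The others were HES1 region 8 in R232fs HA, with a median fold of 2.07, and HES4 region 4 in Y287X TY1, with 1.72.

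The DTX1 pair, chr12:113524159-113524521 and chr12:113524565-113524837, had median summits 353 bp apart. Both R232fs HA lists had their summit in region 13, with a fold of 10.04 and 10.8, and both R232fs TY1 lists in region 14, with 5.58 and 11.3. Both Y287X HA lists, 1 of 2 Y287X TY1 lists, 1 of 2 G365R HA lists, both G365R TY1 lists and both WT lists had it in region 13. The HES1 pair, chr3:193852157-193852411 and chr3:193852722-193852982, had median summits 571 bp apart. Here both Y287X TY1 lists lay in region 6, with a fold of 4.54 and 6.19, and both Y287X HA and all 4 R232fs lists in region 5. Outside Y287X, summits in region 6 came with either tag: the first G365R TY1 list and both G365R HA lists had a summit there, the first of these HA lists in region 5 as well, and the second G365R TY1 list and both WT lists lay in region 5. When whole peaks were joined in place of summits, no NOTCH region was HA-only or TY1-only in R232fs or Y287X. Each of these regions then joined a stretch with peaks of both tags.

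**Figure D5:**
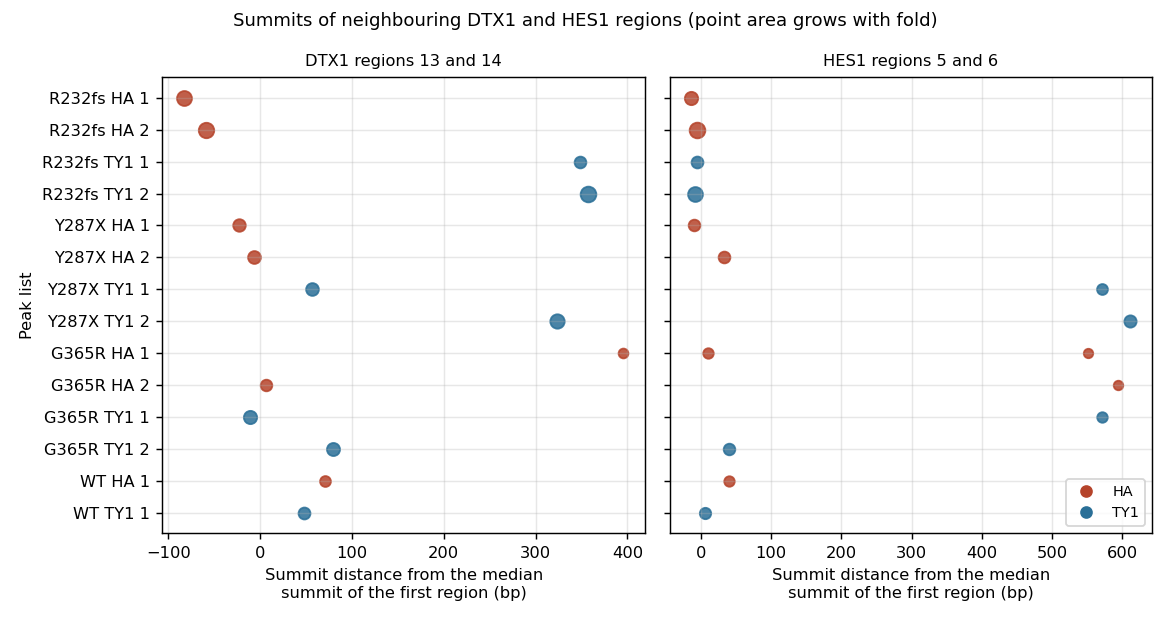
Distance of each list's summit, in bp, from the median summit of DTX1 region 13 (left) and HES1 region 5 (right), with 1 row per list and point area growing with fold. At DTX1 both R232fs TY1 summits lie about 353 bp away from the HA summits' region, and at HES1 both Y287X TY1 summits lie about 571 bp away.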

How the data were processed

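The 14 deposited lists are narrowPeak tables, 1 per HA or TY1 library. The submitters' processing notes name MACS2 2.2.7.1, Bowtie2 2.2.9 and CASAVA 1.8 and the build hg19. Settings of the peak caller were not given in the sources. The authors deposited, per peak, a fold (a linear ratio over local background), −log10 values of p and q (p-value and q-value), and a score. The 7 control samples were not analysed here.

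Chromosomes 1 to 22 and X were kept, which left out 1.41% to 2.17% of a list. Summits were extended by 100 bp on each side and merged. Pileup and background were solved from fold and −log10 p, and 12 lists gave pileups within 0.05 of a whole number for at least 99.99% of peaks tested, while the first G365R TY1 list and the WT TY1 list gave 8.24% and 6.71%. Depth itself is not part of a peak list. Scores were fitted with limma 3.58.1 in R 4.3.3, with 8 groups of genotype and tag and a trend, and the fit was tested on simulated data. It left 6 residual degrees of freedom, and 3 with clone as a term. Fits on the 4 lists of a genotype left fewer still. Python 3.11.15, numpy 2.4.6, pandas 2.3.3, scipy 1.17.1 and matplotlib 3.10.9 were used elsewhere. A region is present in a list with a summit in it.

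Same-numbered HA and TY1 lists of a genotype were taken to come from the same clone, which is an assumption. Their deviations from group means correlated (r = 0.792 for R232fs, 0.702 for Y287X, 0.503 for G365R), and the numbers were taken to pair the samples. The correlation alone does not show that the shared factor is the clone. A fit with clone as a term (HA against TY1) or as a random effect (estimated correlation 0.735) stands beside the fit without it where it changes a call.

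The genes, windows and tests were chosen with earlier results of these data known. Named are all 9 genes, the region of each window in most lists, shared regions called or with the 2 largest changes in a comparison, and the 5 of highest median fold per class of presence. A count over other NOTCH pathway genes was not used here, since the gene table at hand is on GRCh38.p14. Alternatives were other ranks, other regions, the clone term and leaving out each clone.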

Additional observations from a re-analysis of the deposited data

Results flagged for a closer look

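DTX1 region 15 was flagged because the difference between HA and TY1 lists differed between genotypes. With clone as a term, HA minus TY1 in truncating clones minus the same in G365R clones was -1.64 ± 0.26 score units (SE, limma, adjusted p = 0.00874), and the HA percentile was below the TY1 percentile in 4 of 4 truncating clones, in 1 of 2 G365R clones and, by 19.02 against 19.34, in the WT clone.

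HEY1 region 3 was flagged in the same way, in the other direction. Its value was 0.94 ± 0.21 (adjusted p = 0.0211), with the HA percentile above the TY1 percentile in 4 of 4 truncating clones and below it in 2 of 2 G365R clones. Its HA percentile was also below its TY1 percentile in the WT clone, 5.75 against 15.9. Without the clone term neither value passed the threshold (adjusted p = 0.311 for DTX1 and 0.45 for HEY1). The truncating and G365R lists are of different kinds, and the part of this in either result was not tested.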

How the results depend on the processing

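Counts are of regions of the NOTCH windows called. Ranking −log10 p in place of fold gave 5 in R232fs HA minus WT HA, 4 in Y287X HA minus WT HA, 7 in truncating HA minus G365R HA and 5 in truncating TY1 minus G365R TY1, where 28.5%, 21.4%, 39.6% and 24.3% of all regions were called. Ranking the pileup gave 3 in R232fs HA minus WT HA, 5 in Y287X HA minus WT HA and 4 in truncating TY1 minus G365R TY1 (35.5%, 31.9% and 18.1% of all). Centred log2 fold gave 0 in R232fs HA minus WT HA, 2 in truncating HA minus G365R HA and 2 in truncating TY1 minus G365R TY1. Summits extended by 250 bp gave 0 in R232fs HA minus WT HA and 0 in truncating TY1 minus G365R TY1. Regions in at least 10 lists gave 2 in R232fs HA minus WT HA, both higher where the reported call was lower (10.1% of all), 3 in truncating HA minus G365R HA, all higher (17.5% of all), and 0 in truncating TY1 minus G365R TY1. With the clone block there was 1 in HA minus TY1 in R232fs, 1 in HA minus TY1 in Y287X and 0 in R232fs HA minus WT HA, and with the block on regions in all 4 lists 4 in HA minus TY1 in R232fs and 0 in HA minus TY1 in Y287X. Truncating minus G365R for HA minus TY1 had 2 calls with the block and 0 without it. The block changed no other call of the 9 shared regions. The cause of these changes was not tested.

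With 1 clone left out, counts ran from 0 to 3 in R232fs HA minus WT HA, from 0 to 4 in truncating HA minus G365R HA and from 0 to 2 in truncating TY1 minus G365R TY1. With the block and 1 clone of another genotype left out, counts were 1 in HA minus TY1 in R232fs and 0 to 1 in Y287X. Other comparisons of tags gave 0 throughout. In G365R HA minus WT HA all alternatives gave 0.

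For regions of 1 tag, extension by 250 bp gave 1 HA-only and 0 TY1-only regions in R232fs and 1 TY1-only region in Y287X. Whole peaks gave 0 HA-only and 0 TY1-only regions in both R232fs and Y287X. A −log10 q of at least 5 gave 1 TY1-only region in Y287X, and lists of equal length 4 TY1-only regions in G365R. Of the named changes, 1 turned round: NOTCH1 region 7 in HA minus TY1 in G365R was -0.14 with regions in at least 10 lists. Of the other values under alternatives, 200 stayed on the same side of the threshold with the same sign, 23 newly passed it and 40 no longer did. Depth is known only through the background, and a region absent from a list is one where no peak was called.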
